A study of Mus musculus with 8 samples.

Results

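The genes described here are 9 Kruppel-like factors, Klf2, Klf3, Klf4, Klf6, Klf7, Klf9, Klf10, Klf12 and Klf13, which were taken by gene symbol from the mRNA table and make up 9 of its 22298 genes. The study sorted B-lineage cells from the bone marrow of wild type female C57BL/6 mice aged 8 to 10 weeks and followed RNA from the pro-B to the mature B-cell stage. Pro-B cells were sorted as B220+IgM-CD43+, pre-B cells as B220+IgM-CD43-, immature B cells as B220+IgM+CD43- and mature B cells as B220hiIgM+CD43-. Each stage had 1 rRNA-depleted library made from the pooled cells of 3 mice, so no difference between stages had a replicate check, and every interval below covers counting error only. In sorted bulk RNA, fewer cells of a type and less RNA per cell cannot be told apart.

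Kruppel-like factors are transcription factors that bind GC-rich and CACCC sequences through zinc fingers at the carboxyl end of the protein. The family falls into a group that mostly activates transcription through acetyltransferases (Klf2, Klf4, Klf6 and Klf7), a group that recruits the corepressor CtBP (Klf3 and Klf12) and a group that recruits the Sin3a corepressor (Klf9, Klf10 and Klf13). In lymphocytes the family is known for holding resting cells out of the cell cycle and for control of homing and egress genes. The related SP factors bind the same GC boxes.

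Promoter sequences were available for 8 of the 9 genes, all but Klf10, from RefSeq on GRCm38.p6. The 250 bases before the start are printed for Klf2, the gene that took the largest share of the family counts in pre-B and immature B cells, and for the 5 genes whose level was higher in mature than in immature B cells. Capitals mark the GC box (GGGCGG, or CCGCCC on the other strand) and the CACCC box (CACCC, or GGGTG on the other strand), which can overlap. The Klf2 window is chr8:72318812-72319061 on the plus strand, that of Klf4 chr4:55532476-55532725 on the minus strand and that of Klf6 chr13:5861239-5861488 on the plus strand. The Klf3 window is chr5:64803271-64803520 on the plus strand, that of Klf9 chr19:23140976-23141225 on the plus strand and that of Klf13 chr7:63938916-63939165 on the minus strand.
Klf2: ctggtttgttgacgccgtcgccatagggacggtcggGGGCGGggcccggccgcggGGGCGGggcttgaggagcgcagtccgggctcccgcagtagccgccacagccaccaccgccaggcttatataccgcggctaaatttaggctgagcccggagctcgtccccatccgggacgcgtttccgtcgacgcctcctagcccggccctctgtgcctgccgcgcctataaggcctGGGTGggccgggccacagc
Klf4: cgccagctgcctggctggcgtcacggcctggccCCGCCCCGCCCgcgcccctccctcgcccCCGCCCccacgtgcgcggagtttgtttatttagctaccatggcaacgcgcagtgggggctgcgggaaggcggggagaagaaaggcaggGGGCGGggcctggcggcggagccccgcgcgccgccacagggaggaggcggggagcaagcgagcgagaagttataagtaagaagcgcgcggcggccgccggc
Klf6: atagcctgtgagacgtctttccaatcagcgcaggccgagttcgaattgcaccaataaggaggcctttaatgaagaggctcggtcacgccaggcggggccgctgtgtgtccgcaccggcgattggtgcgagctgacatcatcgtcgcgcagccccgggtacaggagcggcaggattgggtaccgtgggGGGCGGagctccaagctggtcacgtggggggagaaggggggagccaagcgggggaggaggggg
Klf3: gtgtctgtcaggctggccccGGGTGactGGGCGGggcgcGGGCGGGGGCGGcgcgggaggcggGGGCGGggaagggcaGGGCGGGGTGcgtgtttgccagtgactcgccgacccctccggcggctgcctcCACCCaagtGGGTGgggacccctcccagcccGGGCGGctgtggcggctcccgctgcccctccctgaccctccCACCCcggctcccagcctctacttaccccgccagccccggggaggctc
Klf9: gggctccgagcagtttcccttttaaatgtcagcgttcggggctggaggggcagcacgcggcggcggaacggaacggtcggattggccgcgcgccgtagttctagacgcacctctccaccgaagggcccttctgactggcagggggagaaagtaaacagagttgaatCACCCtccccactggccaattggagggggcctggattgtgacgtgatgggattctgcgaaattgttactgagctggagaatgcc
Klf13: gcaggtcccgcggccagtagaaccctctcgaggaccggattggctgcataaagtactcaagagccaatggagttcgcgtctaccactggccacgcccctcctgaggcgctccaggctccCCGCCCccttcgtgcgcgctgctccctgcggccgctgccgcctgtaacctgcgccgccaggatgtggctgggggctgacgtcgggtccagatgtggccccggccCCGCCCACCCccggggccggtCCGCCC
A GC box was present in 6 of the 8 windows, against 32.7% of the 32851 mouse promoter windows of the same length, and a CACCC box in 6 of the 8, against 52.0%. Klf3 held 6 GC boxes and 5 CACCC boxes, and Klf4 held 4 GC boxes and no CACCC box. The Klf9 and Klf12 windows each held 1 CACCC box and no GC box. The Klf12 window, chr14:100149797-100150046 on the minus strand, lies inside the gene, which spans 99866181 to 100285891. The Klf7 window, chr1:64121390-64121639 on the minus strand, also lies inside its gene, which spans 64029448 to 64122345. It held 1 GC box and 3 CACCC boxes. What is given for Klf12 and Klf7 therefore describes an internal start and not the outer start of the gene. The CCAAT box (CCAAT or ATTGG) was found in the windows of Klf6, Klf9 and Klf13, against 33.8% of all windows, and the TATA box (TATAAA or TTTATA) in that of Klf12 alone, against 12.4%. GC content was 71.2% for Klf2, 74% for Klf4, 64.8% for Klf6, 78.4% for Klf3, 59.6% for Klf9 and 71.6% for Klf13, all above the median of 52.4% over all windows, while Klf12 was below it at 48%. A match is a description of the letters in the window and not of binding.

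The mRNA columns held 867920 counts in pro-B, 240231 in pre-B, 223495 in immature B and 849350 in mature B cells, so 1 count was worth 1.15, 4.16, 4.47 and 1.18 CPM (the count scaled to a column total of 1e+06), respectively. A count of 0 allows up to 3 counts, which is 3.46, 12.5, 13.4 and 3.53 CPM. Of the counts in the mRNA and lncRNA tables together, the mRNA table held 23.7% in pro-B, 6.48% in pre-B, 6.48% in immature B and 23.5% in mature B cells. The stage labels were checked against marker genes, and not every marker followed its label. The pro-B markers Dntt and Igll1 stood at 974 and 492 CPM in pro-B cells and at 0 in the other 3 libraries. Fcer2a was at 421 CPM in mature B cells and 0 elsewhere. Of the 4 pre-B markers, Rag2 and Il2ra were highest in pre-B cells at 316 and 83.3 CPM. Rag1, of the recombinase, stood at 918 CPM in pro-B and 372 in pre-B cells. It was at 0 in immature and 1.18 in mature B cells. Vpreb3 was highest in immature B cells at 456 CPM. Of the 4 immature B markers, Ighm, Igkc and Ms4a1 were highest in immature B cells at 7816, 579 and 1016 CPM. Cd93 fell from 429 CPM in pro-B to 94.0 in immature and 56.5 in mature B cells. B lineage markers summed to between 4510 and 5889 CPM in the 4 libraries, but single markers did not share that even level. Cd79b stood at 780, 2073, 2707 and 925 CPM from pro-B to mature B cells. Ptprc stood at 290, 39.1, 69.8 and 676 CPM and Blnk at 457, 171, 67.1 and 179. Markers of other cells were present: the 10 myeloid markers summed to 1659, 1852, 1436 and 1259 CPM from pro-B to mature B cells with Csf1r at 0 in all 4 libraries, and the 9 erythroid and megakaryocyte markers to 419, 370, 248 and 218 CPM with Ppbp at 0. The 9 T and NK cell markers summed to 263 CPM in pro-B cells and 5.89 to 17.9 CPM in the others, the 5 plasma cell markers to between 181 and 560 CPM, and the 5 plasmacytoid dendritic cell markers, of which Irf8 is also a B-cell gene, to 1487, 379, 877 and 725 CPM. The part of these cells in the values below was not tested.

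Summed over the 9 genes, the level was 1656 CPM (95% Poisson interval 1571 to 1744) in pro-B, 1456 (1308 to 1618) in pre-B, 1254 (1110 to 1409) in immature B and 2314 (2212 to 2418) in mature B cells. The mature B library was therefore highest and its interval met none of the others. Without Klf2 the sums were 1398, 879, 799 and 1877 CPM, so that the low values were those of the middle stages. The plot of each gene by library shows that the genes did not share a single course.

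**Figure D1:**
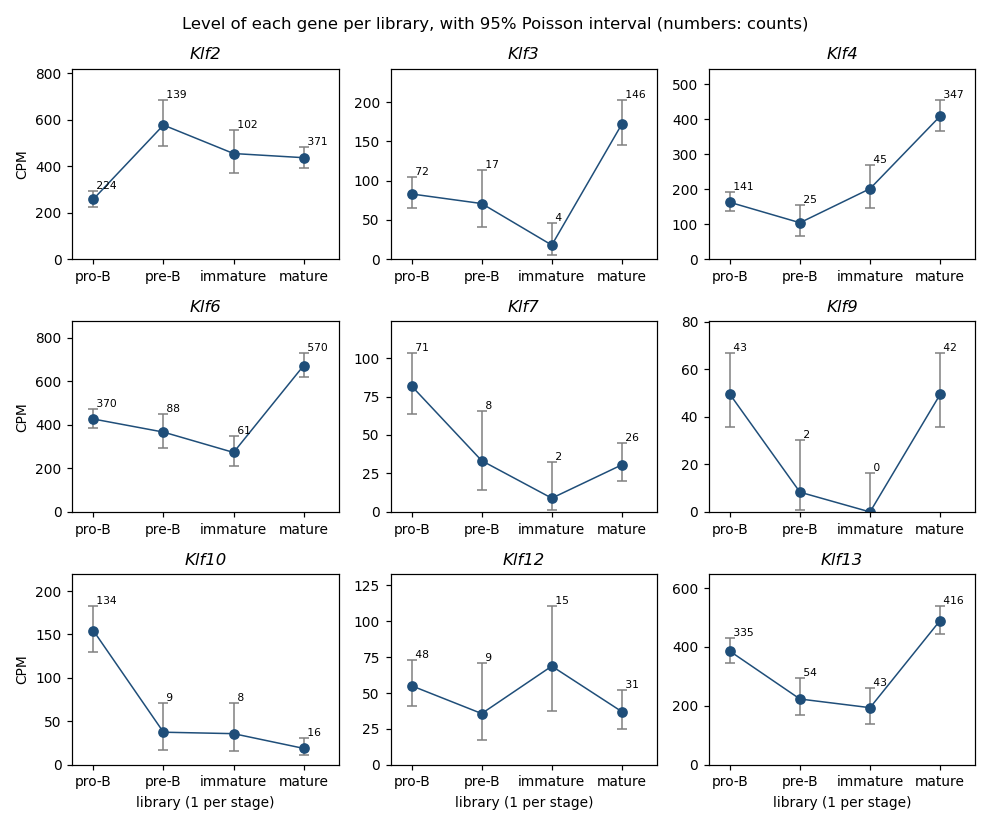
CPM (the count scaled by the mRNA column total, linear axis from 0) of the 9 Kruppel-like factor genes in each library, from pro-B on the left to mature B cells on the right. Points are the value of each library, bars its exact 95% Poisson interval and printed numbers its count; Klf2 stood at 258 CPM in pro-B and 577 in pre-B cells, while Klf10 stood at 154 in pro-B and 18.8 in mature B cells.

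Klf2 (ENSMUSG00000055148), a regulator of lymphocyte quiescence and egress, had 224.07, 138.58, 101.55 and 370.72 counts, or 258, 577, 454 and 436 CPM, from pro-B to mature B cells. It was lowest in pro-B cells, whose interval of 225 to 294 CPM met none of the others, and the 454 CPM of immature B cells and 436 CPM of mature B cells overlapped in their intervals. Its counts were not whole in any library, and how shared reads were split is not given in the sources used here. Klf4 (ENSMUSG00000003032), a brake on cell division that is also used to reprogram cells, had 141, 25, 45 and 347 counts, or 162, 104, 201 and 409 CPM. The mature B value was the highest, with an interval of 367 to 454 CPM that met no other. Klf6 (ENSMUSG00000000078), a broadly expressed activator, had 370, 88, 61 and 570 counts, or 426, 366, 273 and 671 CPM, again with the highest value in mature B cells. Klf7 (ENSMUSG00000025959), best known from neuronal development, had 71, 8, 2 and 26 counts, or 81.8, 33.3, 8.95 and 30.6 CPM. Only the pro-B and mature B values of Klf7 rested on more than 10 counts, and the pro-B value was the higher of the pair.

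Of the genes that recruit CtBP, Klf3 (ENSMUSG00000029178) had 72, 17, 4 and 146 counts, or 83.0, 70.8, 17.9 and 172 CPM. Pro-B and pre-B cells overlapped in their intervals, immature B cells were lowest and mature B cells highest. Klf12 (ENSMUSG00000072294) had 47.77, 8.57, 15.36 and 31.43 counts, or 55.0, 35.7, 68.7 and 37.0 CPM. Most of the Klf12 count belonged to a transcript that the lncRNA table lists as noncoding, ENSMUST00000226544, which held 45.77 of the pro-B counts (95.8%), all 8.57 of the pre-B and all 15.36 of the immature B counts, and 21.43 of the mature B counts (68.2%). The Klf12 values therefore describe chiefly that transcript, and no count was left for coding transcripts in pre-B and immature B cells.

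Of the genes that recruit Sin3a, Klf13 (ENSMUSG00000052040), an activator of the chemokine gene Ccl5 in T cells, had 334.65, 53.61, 43.3 and 415.85 counts, or 386, 223, 194 and 490 CPM. Pro-B and mature B cells were the high libraries, and their intervals overlapped neither each other nor those of pre-B and immature B cells. Klf9 (ENSMUSG00000033863), a glucocorticoid-responsive repressor, had 43, 2, 0 and 42 counts, or 49.5, 8.33, 0 and 49.4 CPM. It was at nearly the same level at the ends of the series, and in immature B cells it was under the 13.4 CPM that a count of 0 allows. Klf10 (ENSMUSG00000037465), a gene induced by TGF-beta, had 134, 9, 8 and 16 counts, or 154, 37.5, 35.8 and 18.8 CPM. Klf10 was the gene of the 9 whose CPM was highest in pro-B cells and lowest in mature B cells. The mature B interval of 10.8 to 30.6 CPM overlapped those of pre-B and immature B cells. On the authors' FPKM immature B cells were lowest, at 0.96 against 1.04 in mature B cells.

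Levels of different genes were compared on the authors' FPKM, which divide by transcript length. In pro-B cells Klf6 at 25.53 and Klf2 at 22.32 FPKM led with overlapping counting intervals, followed by Klf10 at 15.07, Klf12 at 10.35, Klf13 at 9.94 and Klf4 at 8.56 FPKM. In pre-B cells Klf2 led at 13.06 FPKM ahead of Klf6 at 7.82, and neither interval met the next gene's, while the genes from Klf10 at 2.66 FPKM downwards each overlapped the next. In immature B cells Klf2 at 10.46 FPKM was ahead of Klf6 at 5.42, which overlapped Klf4 at 3.68. Mature B cells had Klf2 at 37.97 and Klf6 at 37.88 FPKM with overlapping intervals, then Klf4 at 21.67 and Klf13 at 20.7, which also overlapped, then Klf3 at 13.29 FPKM. Klf10, which followed Klf2 in pro-B cells, was last in mature B cells at 1.04 FPKM, with an interval that met that of Klf7 at 1.9 FPKM. Counts per FPKM of a gene moved between libraries by more than the depth for some genes, for example 8.89, 3.38, 8.33 and 15.4 for Klf10, so the order is that of the authors' quantification and not of raw counts.

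Pre-B against pro-B cells shows the family across the loss of surface CD43. A gene was called where the CPM ratio was 2-fold or more and its exact interval left out 1. Klf2 was higher in pre-B cells, and Klf7, Klf9 and Klf10 were lower, which makes 4 of 9 called, 1 higher and 3 lower, beside 38.2% of all 9712 features tested (14.4% higher and 23.8% lower). Klf2 was 2.23-fold higher (95% interval 1.80 to 2.78), Klf10 4.12-fold lower (2.11 to 9.21), Klf9 5.95-fold lower (1.55 to 50.7) and Klf7 2.46-fold lower (1.18 to 5.91). Klf13 was 1.73-fold lower (1.29 to 2.33) and Klf4 1.56-fold lower (1.02 to 2.49), both short of the fold needed for a call, and the ratios of Klf3, Klf6 and Klf12 had intervals that held 1. The median log2 ratio was -0.64 over the 9 genes and -0.35 over all features tested. On the authors' FPKM the direction of Klf2 turned, to a log2 ratio of -0.77, on a scale where the median was -2.09 over features with FPKM above 0 in both libraries, so that Klf2 stood 1.32 above that median. The split of all 9712 features moved with the scale, to 1.96% higher and 74.4% lower.

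Between pre-B and immature B cells few of these genes were called. These were the libraries with the fewest mRNA counts, 240231 and 223495, so low counts limited what could be called. Klf3 was lower in immature B cells by 3.95-fold (1.29 to 16.2), on 17 against 4 counts. It was the 1 gene called of 8 tested, beside 25.0% of 7004 features tested (12.4% higher and 12.5% lower). Klf4 was 1.93-fold higher (1.16 to 3.29), just short of the fold needed. Klf12 was 1.93-fold higher (0.734 to 4.64), and Klf2, Klf6, Klf7, Klf10 and Klf13 were lower with intervals that held 1, from 1.05-fold for Klf10 to 3.72-fold for Klf7. Klf9, with 2 and 0 counts, was under the limit of a count of 0 in both libraries and gave no ratio. The median log2 ratio was -0.27 over the 8 genes with a ratio and -0.01 over all features tested. On FPKM the call of Klf3 was lost (log2 -1.04, interval -3.07 to 0.58), while Klf4 was called higher (log2 1.35) and Klf7 lower (log2 -2.38, on 2 against 8 counts).

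Mature against immature B cells had the most calls, all in 1 direction. Klf3, Klf4, Klf6, Klf9 and Klf13 were higher in mature B cells, so 5 of 9 were called higher and 0 lower, beside 37.3% of 8992 features tested (19.7% higher and 17.6% lower). Klf3 was 9.60-fold higher (3.67 to 35.7), Klf9 at least 3.68-fold higher against the 3 counts that a count of 0 allows (2.87-fold at the lower end of the exact interval), Klf13 2.53-fold (1.86 to 3.57), Klf6 2.46-fold (1.89 to 3.26) and Klf4 2.03-fold (1.48 to 2.83). Klf2 stood at a ratio of 0.961 (0.767 to 1.20). Klf7 was 3.42-fold higher (0.856 to 29.7) on 26 against 2 counts, Klf10 1.90-fold lower (0.704 to 4.71) and Klf12 1.86-fold lower (0.922 to 3.51), all with intervals that held 1. The median log2 ratio was 1.298 over the 9 genes, with Klf9 at its bound, and 0.16 over all features tested. On FPKM 7 of the 9 genes were called higher, beside 69.0% of the 8992 features higher and 2.67% lower. Relative to the median of 1.89 over features with FPKM above 0 in both libraries, Klf3, Klf13, Klf6 and Klf4 stood at 3.24, 2.11, 0.91 and 0.67 and Klf2 at -0.03. Of the genes with a CPM ratio below 1 here, Klf2, Klf10 and Klf12 turned to log2 ratios of 1.86, 0.12 and 0.65 on FPKM.

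**Figure D2:**
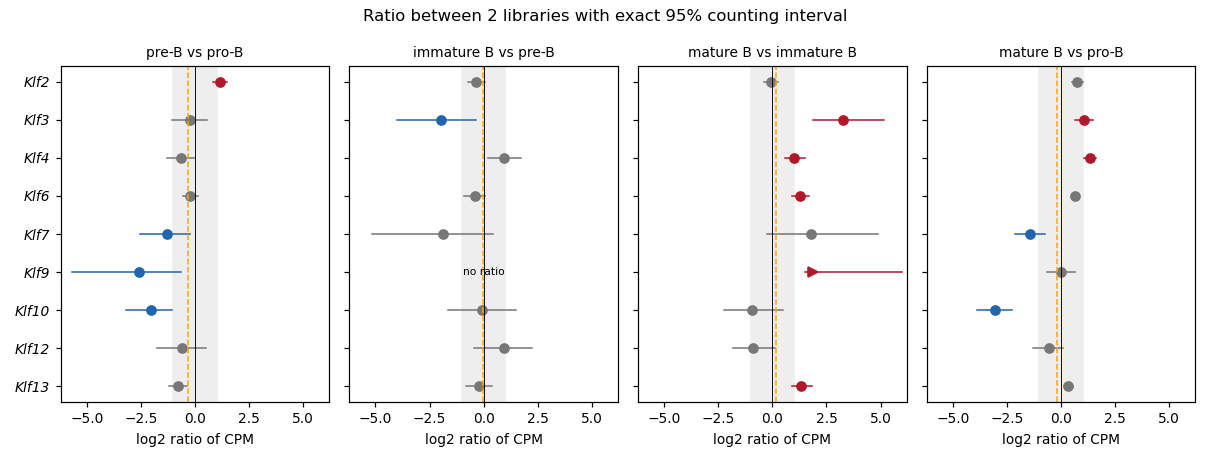
Log2 ratio of CPM for each gene in the 4 comparisons, with the exact 95% counting interval as a line. Red marks a call as higher, blue as lower and grey no call, the grey band spans less than 2-fold, the dashed orange line is the median of all features tested, and the triangle for Klf9 is a lower bound of the size; 5 genes lie above the band in mature against immature B cells and none below it.

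From the first stage to the last, mature B against pro-B cells, Klf4 and Klf3 were higher and Klf10 and Klf7 lower. These are 4 of 9 called, beside 31.6% of 10317 features tested (10.9% higher and 20.8% lower). Klf10 was 8.20-fold lower (4.87 to 14.8) and Klf7 2.67-fold lower (1.68 to 4.36), while Klf4 was 2.51-fold higher (2.06 to 3.08) and Klf3 2.07-fold higher (1.55 to 2.79). Klf2 at 1.69-fold (1.43 to 2.01), Klf6 at 1.57-fold (1.38 to 1.80) and Klf13 at 1.27-fold (1.10 to 1.47) had intervals above 1 but were short of the fold. Klf9 had a ratio of 0.998 (0.637 to 1.56) and Klf12 of 0.672 (0.406 to 1.06). With noncoding transcripts left out, an alternative chosen after seeing the data, Klf12 turned direction and was called higher (log2 2.35, on 10 against 2 counts). On FPKM the direction of Klf7 turned, to a log2 ratio of 0.16, and that of Klf9 to 0.23, where the median over features with FPKM above 0 in both libraries was -0.14. The 4 comparisons share libraries, so their calls are not independent of each other.

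The pairs that differ in the mRNA column total also differ in the mRNA share of the counts of both tables. This share was 23.7 and 23.5% in pro-B and mature B cells and 6.48% in both pre-B and immature B cells. The lncRNA table held 2.80e+06, 3.47e+06, 3.23e+06 and 2.77e+06 counts from pro-B to mature B cells. The middle libraries were therefore low in mRNA counts and not in lncRNA counts. The plot of ratios on both scales shows how far each gene followed the median shift of all features from CPM to FPKM, which was -1.93 in pre-B against pro-B and 1.92 in mature against immature B cells. Klf2 lay on that shift in both comparisons. Farthest from it were Klf10 in the first, with log2 ratios of -2.04 on CPM and -2.50 on FPKM, and Klf7 in the second, with 1.77 on CPM and 5.25 on FPKM, the latter on 2 immature B counts. In mature against pro-B cells the shift was 0.01, and in immature against pre-B cells 0.02. The counts of calls in gene lists below are on the CPM scale, and on FPKM each is set against a background moved by these shifts.

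**Figure D3:**
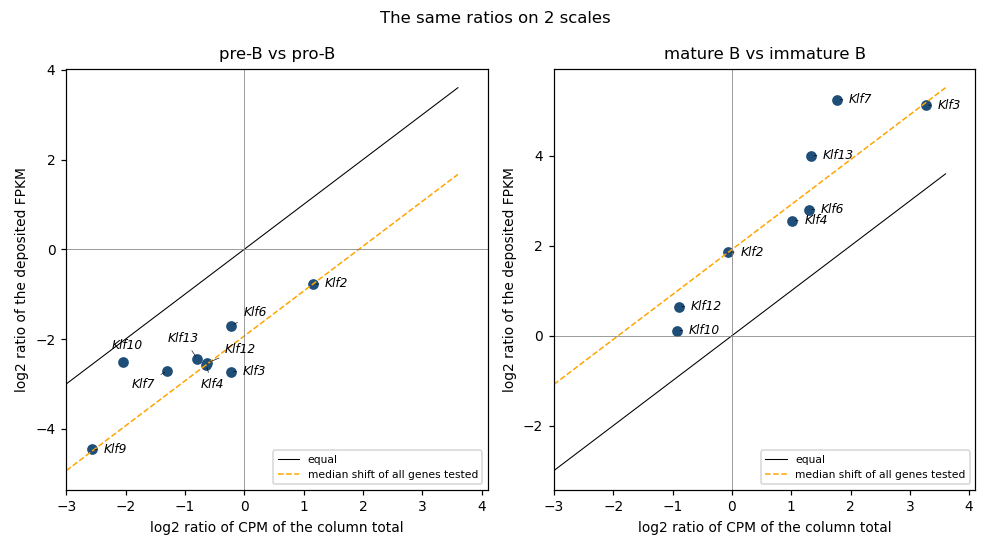
Log2 ratio of the deposited FPKM (y axis) against log2 ratio of CPM of the column total (x axis) for each gene in pre-B against pro-B and mature against immature B cells; Klf9, listed at 0 FPKM in immature B cells, is left out of the second panel. The solid line marks equal values and the dashed line the median shift of all features tested, of -1.93 and 1.92.

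The share of each gene in the summed count of the 9 genes needs no library scaling. Klf2 took 15.6% (95% Wilson interval 13.8 to 17.6) of the family counts in pro-B, 39.6% (34.7 to 44.9) in pre-B, 36.2% (31.0 to 42.2) in immature B and 18.9% (17.2 to 20.7) in mature B cells. Pre-B and immature B cells were alike in this share, and their intervals lay clear of the other libraries. Klf6 was steadier, at 25.7, 25.2, 21.8 and 29.0%. Klf10 took 9.32, 2.57, 2.86 and 0.814%, and Klf4 9.81, 7.15, 16.1 and 17.7%. Klf13 took 23.3% in pro-B, 15.3% in pre-B, 15.5% in immature B and 21.2% in mature B cells, and Klf3 took 5.01, 4.86, 1.43 and 7.43%.

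**Figure D4:**
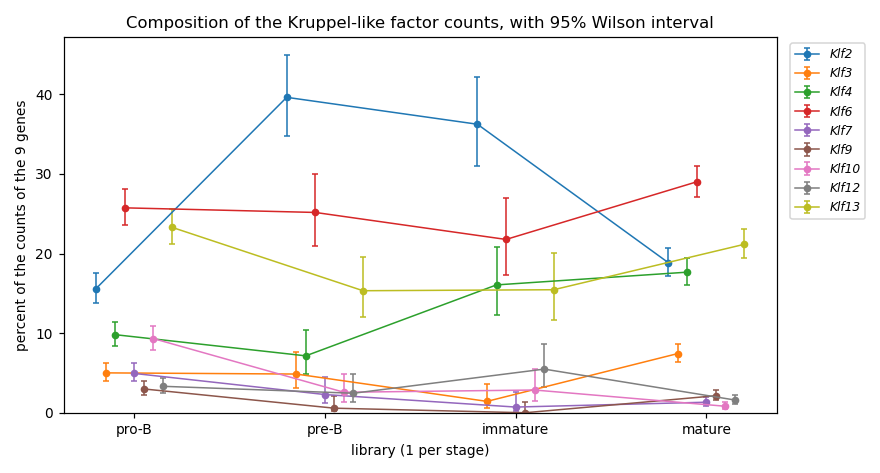
Percent of the summed count of the 9 genes that each gene took in each library (linear axis), with 95% Wilson intervals, which cover counting error only. Klf2 took 15.6% in pro-B, 39.6% in pre-B, 36.2% in immature B and 18.9% in mature B cells.

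Genes with the most similar profile over the 4 libraries were found for the 3 genes with the most counts among 4736 genes with at least 100 counts, by the root mean square difference of centred log2(CPM + 1). For Klf6 these were Sik3 at 0.031, Brpf3 at 0.037 and Tsc22d2 at 0.041. For Klf13 they were Zc3h15 at 0.030, Fzd5 at 0.048 and Itch at 0.049. For Klf2 they were Tbc1d1 at 0.042, Spi1 at 0.055 and Anks3 at 0.067, and Spi1, the ETS factor PU.1, stood at 41.5, 87.4, 76.1 and 71.8 CPM from pro-B to mature B cells. Within the family, Klf6 and Klf13 were each other's nearest at 0.20, whereas the nearest to Klf2 was Klf6 at 0.68. With 4 points, such likeness is a description only.

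The other 8 Kruppel-like factors were scarce, with summed levels of 120, 83.3, 94.0 and 113 CPM from pro-B to mature B cells. Klf11, a TGF-beta-inducible repressor, stood at 104, 58.3, 58.2 and 69.5 CPM and was called in no comparison. Klf16 stood at 5.76, 0, 26.8 and 25.9 CPM. It was 4.50-fold higher (1.66 to 15.2) in mature B than in pro-B cells, on 22 against 5 counts. This was the 1 call of 3 genes tested there, beside 10.9% of all features higher and 20.8% lower. Only 1 gene was tested in pre-B against pro-B, 1 in immature against pre-B and 2 in mature against immature B cells. In these comparisons 0 were called, beside 38.2%, 25.0% and 37.3% of all features. Klf14, Klf15 and Klf17 had no count in any library. The SP family showed a larger excursion, with sums of 685, 205, 259 and 990 CPM. Sp1, the ubiquitous GC-box factor, stood at 348, 91.6, 134 and 411 CPM, Sp3, which shares its sites, at 226, 88.5, 53.5 and 307, Sp4 at 52.2, 16.7, 67.1 and 172, and Sp2 at 58.8, 0, 4.47 and 100.1. All 4 SP genes tested were called lower in the step from pro-B to pre-B cells and all 4 higher in mature than in immature B cells, with median log2 ratios of -1.79 and 2.07, beside 23.8% of all features tested lower in the first comparison and 19.7% higher in the second. In immature against pre-B cells Sp4 alone of 3 tested was called, 4.03-fold higher (1.28 to 16.7), beside 12.4% of all features higher, and in mature against pro-B cells Sp4 alone of 4, 3.29-fold higher (2.36 to 4.74), beside 10.9%.

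**Figure D5:**
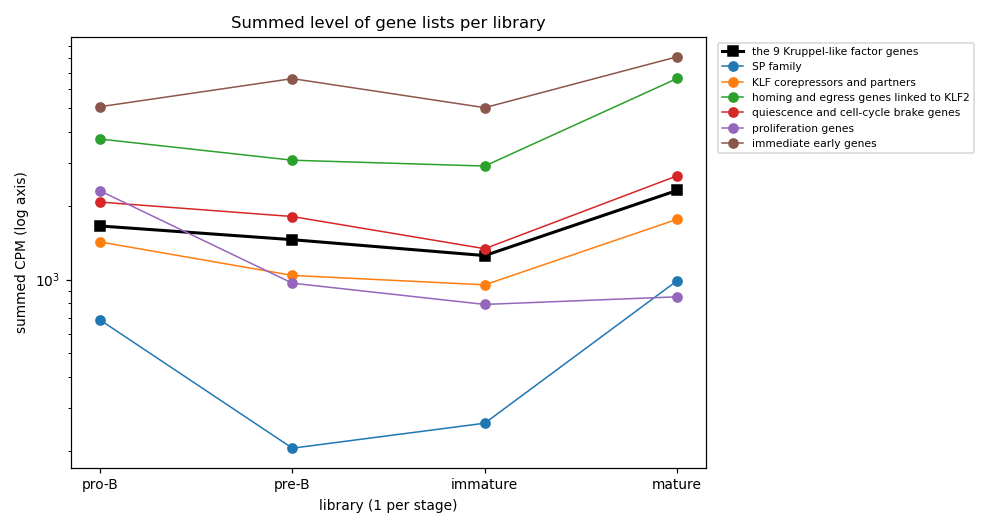
Summed CPM (log axis) of the 9 Kruppel-like factor genes (squares) and of 6 gene lists (circles) in each library. The SP family sum was lowest in pre-B cells at 205 CPM and highest in mature B cells at 990 CPM.

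Of the 11 corepressors and partners of the family, Ep300, an acetyltransferase, stood at 439, 175, 277 and 695 CPM from pro-B to mature B cells, Crebbp, its paralogue, at 294, 345, 180 and 447, Sin3a at 233, 95.7, 107 and 228 and Ctbp1 at 154, 102, 168 and 168. In pre-B against pro-B cells 0 of 9 tested were higher and 3 lower, beside 14.4% and 23.8% of all features, and in immature against pre-B cells 0 of 7 were higher and 1 lower, beside 12.4% and 12.5%. In mature against immature B cells 3 of 7 were higher and 0 lower, beside 19.7% and 17.6%, and in mature against pro-B cells 0 of 9 were higher and 2 lower, beside 10.9% and 20.8%. Ctbp2 and Hdac1 were listed at 0 in all 4 libraries. Hdac1 is a gene that nearly every cell uses, so a listed 0 can be a gap of the quantification.

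Among 12 homing and egress genes that have been linked to Klf2, the sum was 3750, 3073, 2909 and 6627 CPM, so mature B cells were highest. Between mature and immature B cells Klf2 itself stood at a ratio of 0.961 on CPM. On FPKM its log2 ratio was 1.86, beside a median of 1.89 over features with FPKM above 0 in both libraries. A link between Klf2 and these genes was not tested. Cxcr4, the receptor that holds cells in the marrow, stood at 1093, 1553, 1047 and 1460 CPM and was called in no comparison. Itga4, an integrin subunit, stood at 1231, 43.5, 61.3 and 662 CPM, Ccr7, the lymph node homing receptor, at 123, 350, 689 and 1281, and Cd69, which counters egress, at 646, 599, 327 and 487. In pre-B against pro-B cells 2 of 9 tested were higher and 3 lower (14.4% and 23.8% of all features), and in immature against pre-B cells 1 of 9 was higher and 1 lower (12.4% and 12.5%). In mature against immature B cells 6 of 11 were higher and 1 lower, beside 19.7% and 17.6% of all features, and in mature against pro-B cells 7 of 11 were higher and 1 lower, beside 10.9% and 20.8%. Cxcr5 and Fcer2a were at 0 in all libraries but mature B cells.

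The 12 quiescence and cell-cycle brake genes summed to 2073, 1810, 1337 and 2654 CPM. Btg1, an antiproliferative gene, stood at 409, 598, 441 and 872 CPM, Foxp1, a forkhead factor of the B lineage, at 463, 255, 204 and 725, Btg2 at 315, 379, 192 and 207 and Foxo3 at 263, 79.1, 134 and 263. The calls were 2 higher and 2 lower of 11 in pre-B against pro-B cells, beside 38.2% of all features called, and 0 and 1 of 10 in immature against pre-B cells, beside 25.0%. They were 3 and 1 of 10 in mature against immature B cells, beside 37.3%, and 1 and 1 of 11 in mature against pro-B cells, beside 31.6%. Rbl2 was listed at 0 in all 4 libraries. The 15 proliferation genes summed to 2305 CPM in pro-B cells and to 967, 792 and 851 in the later stages, and 7 of 15 were lower and 1 higher in pre-B against pro-B cells, beside 23.8% and 14.4% of all features. In immature against pre-B cells 2 of 8 were lower and 2 higher (12.5% and 12.4% of all features), and in mature against immature B cells 3 of 12 were lower and 2 higher (17.6% and 19.7%), with a median log2 ratio of 0.48. In mature against pro-B cells 12 of the 15 were lower and 1 higher, beside 20.8% and 10.9%. Mki67, the proliferation antigen, stood at 730.5, 316, 170 and 135 CPM, Pcna, the replication clamp, at 237, 137, 62.6 and 118, Ccnd3, the D-type cyclin of pre-B cells, at 227, 167, 152 and 57.7, and Top2a at 242, 58.3, 35.8 and 78.9. On CPM, Klf10 and Klf7 also had their highest level in pro-B cells, and Klf9 was about level in pro-B and mature B cells at 49.5 and 49.4. On FPKM, Klf7 stood at 1.7 in pro-B and 1.9 in mature B cells. A link of these genes to proliferation was not tested.

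Immediate early genes, which cells induce within minutes of a stimulus, summed to 5083, 6619, 5037 and 8127 CPM. Junb stood at 490, 737, 1038 and 2169 CPM, Jund at 1116, 2472, 1381 and 1158, Jun at 1461, 1318, 403 and 438, and Ier5 at 408, 275, 586 and 776. In mature against immature B cells 5 of 13 tested were higher and 0 lower, beside 19.7% and 17.6% of all features, and in mature against pro-B cells 5 of 14 were higher and 2 lower, beside 10.9% and 20.8%. In pre-B against pro-B cells 4 of 14 were higher and 2 lower (14.4% and 23.8% of all features), and in immature against pre-B cells 4 of 14 were higher and 3 lower (12.4% and 12.5%). The part of the sorting procedure in these levels was not tested.

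Back-spliced reads at these genes were few, and all 3 circular RNAs listed under them were of the antisense class and seen in 1 library each. novel_circ_000110, at chr7:63888653-63891503 on the plus strand and antisense to Klf13, had 8 of the 1531 back-spliced reads of the mature B library. novel_circ_000586, at chr8:72319064-72319647 on the minus strand and antisense to Klf2, had 4 of 1370 reads in pro-B cells, and novel_circ_000694, at chr1:64069137-64071442 on the plus strand and antisense to Klf7, had 4 of 1751 reads in immature B cells. Coordinates are those of the deposited table, whose positions overlapped the named gene on GRCm38.p6 in 931 of 945 circular RNAs. A further noncoding transcript under a family symbol, ENSMUST00000236357 of Klf9, held 2 of the 42 mature B counts.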

How the data were processed

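The authors pooled sorted cells of 3 mice for each stage and sequenced 1 stranded, rRNA-depleted library per stage. Reads were trimmed with fastp 0.18.0, cleared of rRNA with Bowtie2 2.2.8, aligned with HISAT2 2.1.0 and quantified with StringTie 1.3.4. The deposited mRNA table holds estimated counts per gene and FPKM, both made by the authors. The lncRNA table holds deposited estimated counts per transcript. The circRNA table holds deposited counts of back-spliced reads. The submitters' processing notes name mm9, but circRNA positions fit GRCm38. Molecular identifiers were not described, so intervals cover counting error only. Gene counts included noncoding transcripts of the same symbol in 3585 of 3586 gene and library pairs checked.

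CPM was the count divided by the mRNA column total. Exact Poisson intervals, exact binomial (Clopper-Pearson) intervals of ratios and Wilson intervals of shares, all at 95%, were computed with scipy 1.17.1 in Python 3.11.15, on counts rounded to whole numbers. A count of 0 was set to 3 counts, giving a bound, and no ratio was given where both counts were at or under 3. Features with at least 10 counts over both libraries were tested, and a call needed a 2-fold ratio with an interval off 1. Counts were also simulated with counting error only, so differences between libraries beyond counting were not covered. Genes changed 4-fold were drawn from those with at least 10 counts in the earlier library. Of these, 82% were called in pre-B against pro-B, 89.5% in immature against pre-B, 96.5% in mature against immature B and 96% in mature B against pro-B cells. Of unchanged genes, 1.57%, 2.56%, 1.78% and 1.27% were called in the same order. Promoter motifs were counted on both strands of RefSeq windows.

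Alternatives used edgeR 4.0.16 and DESeq2 1.42.0. The genes and lists were chosen with earlier results of these data known. Named were all 9 genes, other KLF and SP genes with at least 10 counts in some library, and the 4 genes with most counts of each other list; of cell marker lists only the genes used to check labels are named, and genes named at 0 were chosen after their values were seen. The small RNA table was not used.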

Additional observations from a re-analysis of the deposited data

How the results depend on the processing

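No paired analysis was possible because each stage had 1 library, and for the same reason no library could be left out. All 35 ratios of single genes kept their call, or stayed without one, under TMM scaling, DESeq2 size factors and edgeR's exact test at a dispersion of 0.0001. Calls of the 9 genes did not use the filter on counts, so changing it could move only the background. In pre-B against pro-B cells the share of all features called lower was 16.92% with no filter and 29.35% with a filter of 20 counts. Ratios near 1 changed sign under scaling, namely Klf2 in mature against immature B cells (log2 0.029 under TMM) and Klf9 in mature B against pro-B cells (0.14 under TMM and 0.18 under DESeq2). DESeq2 size factors moved the median of all features in pre-B against pro-B cells from -0.35 to -0.17, and TMM moved that in mature B against pro-B cells from -0.18 to -0.03. With the authors' FPKM, 19 ratios kept direction and side of the threshold, and 6 changed direction. Of those that kept direction, 9 also passed the threshold newly and 1 lost it (Klf3 in immature against pre-B cells). The 6 were Klf2 in pre-B against pro-B cells (log2 -0.77), Klf2, Klf10 and Klf12 in mature against immature B cells (1.86, 0.12 and 0.65) and Klf7 and Klf9 in mature B against pro-B cells (0.16 and 0.23). Among the 6, Klf2 in pre-B against pro-B cells and Klf7 in mature B against pro-B cells also lost their calls. Klf2 in mature against immature B cells was newly called higher. The genes called were then 8 in pre-B against pro-B (0 higher and 8 lower) and 2 in immature against pre-B cells (Klf4 higher and Klf7 lower). With a 4-fold threshold the calls fell to 2 in pre-B against pro-B, 0 in immature against pre-B, 1 in mature against immature B and 1 in mature B against pro-B cells. With edgeR's exact test at an assumed dispersion of 0.16, they were 1 (Klf10), 0, 2 (Klf3 and Klf9) and 1 (Klf10) in the same order. Most calls were thus lost when error beyond counting of that assumed size was allowed for. Without replicates the dispersion of these data is not known. Leaving out noncoding transcripts, an alternative chosen after seeing the data, turned Klf12 to a call as higher in mature B against pro-B cells (log2 2.35, on 10 against 2 counts), making 5 calls there. Ranking genes by counts over an implied length was not run because the table has no length column. Low counts limit Klf3, Klf7, Klf9, Klf10 and Klf12 most, since each had under 20 counts in both pre-B and immature B cells.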
